A study of Mus musculus with 19 samples.

Results

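Collagen genes are the genes whose symbol is Col, a number, the letter a and a second number, each standing for 1 chain of a collagen protein. Their members were found by this symbol in the platform's annotation, among probe sets (groups of short probes for 1 transcript) that carry a single symbol, and each gene was represented by its brightest probe set over all samples. This gave 42 collagen genes, on 82 probe sets, of 18193 genes with such a probe set. The tissue was the EDL (extensor digitorum longus), a fast-twitch muscle at the front of the shin, measured on 19 Affymetrix arrays with 1 sample each. HSALR samples (n = 10) came from mice with a transgene of human skeletal actin that holds a long CTG repeat. Its own actin promoter makes it active in skeletal muscle, and the line is used as a model of myotonic dystrophy. Wild-type samples (n = 9) came from mice without the transgene. All mice of both groups were FVB and 19 weeks old, and the labels name no other allele or treatment. HSALR is a transgenic model that carries the repeat in an actin transcript rather than in the gene mutated in patients. Whether each sample came from its own animal is not stated in the labels. The p-values therefore measure no more than sample-to-sample spread, possibly technical, and the number of arrays limits precision.

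A collagen molecule is a rope of 3 chains wound into a triple helix, and the chains of 1 type come from 1 or several genes. Fibrillar types I and III form the tension-bearing fibrils of tendon and of the connective tissue sheaths of muscle, type V regulates how those fibrils form, and type IV builds the sheet-like basement membrane around each muscle fibre and each vessel. Type VI forms beaded filaments next to that basement membrane, and mutations in its chains cause congenital muscular dystrophies, while FACIT chains (fibril-associated collagens with interrupted helices) sit on the surface of fibrils. Most collagen of muscle and tendon is made by fibroblasts, not by muscle fibres.

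The labelled tissue matched its markers. All 6 skeletal muscle markers, among them Acta1, Ckm and Myh4, were on the array, and their mean level was 13.6 and 13.6 in HSALR samples 9 and 10, 13.5 to 13.7 in the other HSALR samples and 13.6 to 13.8 in wild type, on the scale log2(signal + 16) that is used for every level and fold here. The median level of the tested probe sets ran from 7.30 to 7.96 over the arrays. HSALR samples 9 and 10 formed the closest pair of all, with a Spearman correlation of 0.978 over tested probe sets, against 0.953 to 0.969 between each other sample and its nearest one. They were a pair apart in the collagen genes too, so every comparison was made with and without them.

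No collagen gene passed the test of HSALR against wild type. A gene was tested when the mean of its probe set over all samples reached 6.09, the median over the array, and 31 of the 42 collagen genes did. With all samples, limma with Benjamini-Hochberg adjustment over 22519 probe sets called 0 of the 31 at a false discovery rate of 0.05, beside 3.11% of 11533 tested genes called higher in HSALR and 2.31% called lower. Without adjustment, 5 of 31 collagen genes had a p under 0.05 in the higher direction and 2 in the lower, where 13.8% and 7.47% of all tested genes did. Without HSALR samples 9 and 10 the call was again 0 of 31, beside 2.09% of tested genes called higher and 1.84% called lower, and the counts without adjustment were 3 higher and 3 lower (8.38% and 7.24% of all tested genes).

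On the deposited scaling, the positive median fold of the family was not seen without HSALR samples 9 and 10. With all samples, the median log2 fold over the 31 collagen genes was 0.29, beside 0.05 over all tested genes, and 23 of 31 folds were above 0, where 60.4% of all tested genes were. Without samples 9 and 10, the median fold was -0.02, beside 0.01 over all tested genes, and 13 of 31 folds were above 0, where 53.7% of all tested genes were. With a covariate for RNA quality, described with the marker lists, the median without these samples was positive, 0.21, beside 0.0374 over all tested genes. The 95% interval of the fold from all samples spanned 0 in 24 of 31 collagen genes. HSALR and wild type overlapped in all 31 collagen genes, and 0.728% of all tested genes did not overlap. With so small a share, 0 of 31 does not set collagen genes apart.

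Sample by sample, the median difference of the 31 genes from their wild-type means was 1.05 in HSALR 9 and 1.10 in HSALR 10, -0.42 to 0.59 in the other HSALR samples and -0.35 to 0.31 in wild type. The same median over all tested genes was 0.14 in HSALR 9 and 0.20 in HSALR 10, -0.27 to 0.31 in the other HSALR samples and -0.07 to 0.26 in wild type. After quantile normalization, which gives all arrays the same distribution, the collagen median was still 0.85 and 0.82 in HSALR 9 and 10, against -0.34 to 0.36 in wild type. Among the other HSALR samples, HSALR 8 was the highest at 0.59, while HSALR 4 and 5 were the lowest at -0.41 and -0.42. HSALR 9 and 10 were the 2 highest of all 19 samples in 19 of 31 collagen genes, and this held for 17% of all tested genes. Both lay at least 1 log2 unit above the wild-type mean in 16 of 31 collagen genes, beside 7.01% of all tested genes, and they were the 2 lowest samples in 0 of 31, beside 0.815%. Between themselves the 2 samples differed by a median of 0.17 per collagen gene and by at most 0.76.

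**Figure D1:**
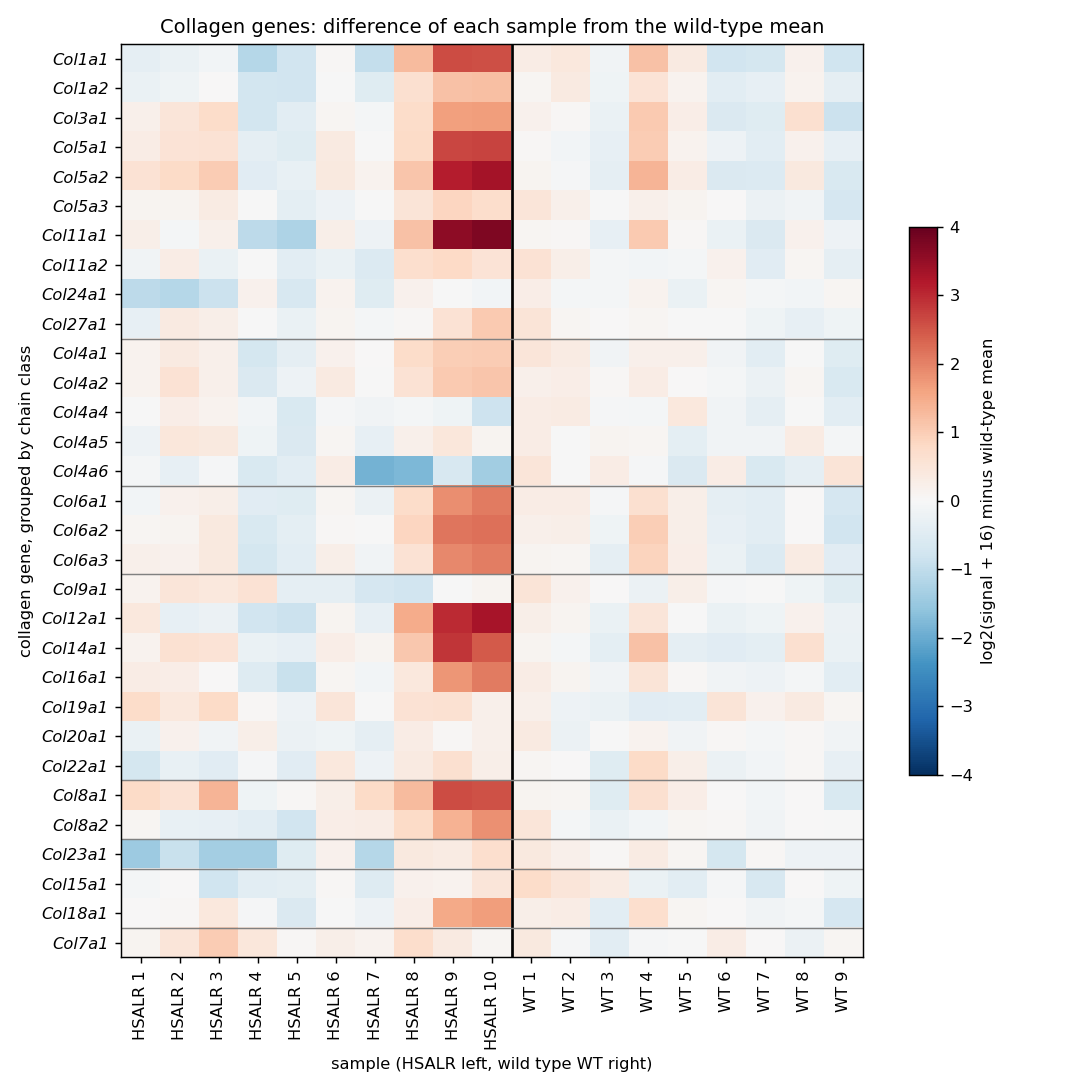
Difference of each sample (columns, HSALR left of the black line and wild type right) from the wild-type mean, in log2 units, for the 31 tested collagen genes (rows, grouped by chain class with grey lines). The columns of HSALR 9 and 10 are the darkest red, with medians of 1.05 and 1.10. Genes that do not follow them include Col4a4, Col4a6, Col24a1, Col7a1 and Col9a1.

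The map of differences shows the pattern by chain class. HSALR 9 and 10 were the 2 highest samples in 8 of 10 tested fibrillar chains, in 3 of 3 type VI chains, in 2 of 2 type VIII chains, in 3 of 7 FACIT chains, in 2 of 5 type IV chains and in 1 of 2 multiplexins (types XV and XVIII). The plot of folds by gene sets the 2 fits side by side.

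**Figure D2:**
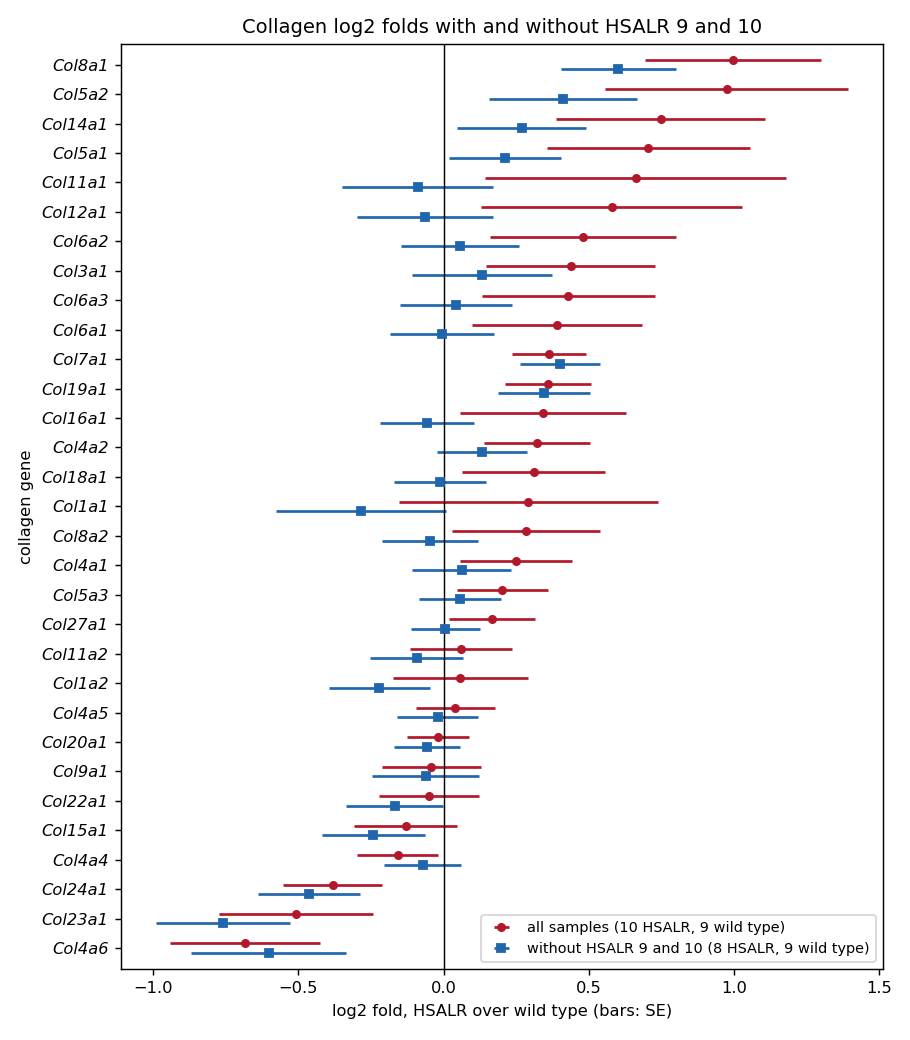
Log2 fold of HSALR over wild type for the 31 tested collagen genes, ordered by the fold with all samples (red circles, 10 HSALR and 9 wild type) and with the fold without HSALR 9 and 10 beside it (blue squares, 8 HSALR and 9 wild type). Bars are standard errors, and Col8a1 at the top has folds of 1.00 and 0.60 while Col4a6 at the bottom has -0.68 and -0.60.

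No fibrillar chain was called, and HSALR 9 and 10 were the highest samples in most of them. The median fold of the 10 tested fibrillar chains was 0.25 with all samples and -0.04 without HSALR 9 and 10. Type I collagen, the main fibril protein of tendon, is made of Col1a1 and Col1a2 chains. Col1a1 had a level of 12.41 and 12.40 in HSALR 9 and 10, 8.68 to 11.09 in the other HSALR samples and 9.01 to 10.99 in wild type. Its mean was 10.10 ± 1.38 in HSALR (SD, n = 10) and 9.81 ± 0.67 in wild type (SD, n = 9), and its fold of 0.29 ± 0.45 (SE, limma adjusted p = 0.758) was -0.28 ± 0.29 without HSALR 9 and 10 (adjusted p = 0.719). Of the 10 HSALR samples, 3 exceeded all wild-type samples, HSALR 9 and 10 among them, and 2 lay below all of them. Col1a2 had 13.61 and 13.65 in HSALR 9 and 10 and 12.04 to 13.01 in wild type. These 2 values lie near the brightest signal of any probe set on an array, which was 13.77 to 14.07, so the difference of the brightest chains may be compressed.

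Col3a1, the single chain of type III collagen in the compliant fibrils of muscle sheaths and vessels, ranged from 11.33 through a median of 12.40 to 13.72 in HSALR, against 11.20, 12.10 and 13.11 in wild type. The 2 highest HSALR values, 13.69 and 13.72, were samples 9 and 10, and no other HSALR sample was above all wild-type samples. Its fold was 0.44 ± 0.29 (limma adjusted p = 0.415) with all samples and 0.13 ± 0.24 (adjusted p = 0.858) without them. A second, dimmer probe set of Col3a1 gave 0.86 with all samples and 0.20 without them.

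The type V chains Col5a1 and Col5a2 start and limit the growth of type I fibrils. Col5a2 ran from 8.95 through 10.10 to 12.73 in HSALR, against 8.79, 9.35 and 10.77 in wild type. Samples 9 and 10 of HSALR were at 12.55 and 12.73, exceeding the mean of wild type by 3.14 and 3.32, and the other 8 HSALR samples, 8.95 to 10.54, lay inside the wild-type range. The fold of Col5a2 was 0.98 ± 0.42 (95% interval 0.11 to 1.84, limma adjusted p = 0.188) with all samples and 0.41 ± 0.26 (adjusted p = 0.474) without HSALR 9 and 10. Its second probe set gave 0.85 and 0.21. Col5a1 ran from 8.46 through 9.38 to 11.62 in HSALR, against 8.50, 8.80 and 9.94 in wild type, with HSALR 9 and 10 at 11.59 and 11.62. Again only samples 9 and 10 stood above the wild-type range, with a fold of 0.70 ± 0.35 (limma adjusted p = 0.256), or 0.21 ± 0.19 (adjusted p = 0.667) without them, and a second probe set at 0.41 and -0.05. Col5a3, the third type V chain, had a fold of 0.20 ± 0.16 and 0.06 without HSALR 9 and 10.

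Col11a1, a minor fibrillar chain best known from cartilage and also made in developing tendon, showed the largest distance of samples 9 and 10 from wild type in the family. It ran from 5.58 through 7.03 to 10.57 in HSALR, against 6.24, 6.86 and 7.86 in wild type. In HSALR 9 and 10 the level exceeded that mean of wild type by 3.58 and 3.75, while 2 other HSALR samples lay below every wild-type sample. The fold was 0.66 ± 0.52 (limma adjusted p = 0.502) with all samples and -0.09 ± 0.26 (adjusted p = 0.923) without them, and a second probe set gave 0.62 and -0.06. Its partner Col11a2 had a fold of 0.06 ± 0.18.

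Col24a1, a minor fibrillar chain, was the fibrillar gene with the lowest fold. It ran from 6.60 through 7.46 to 7.94 in HSALR, against 7.50, 7.69 and 8.02 in wild type, and 5 of 10 HSALR samples lay below every wild-type sample. Samples 9 and 10, at 7.75 and 7.66, were inside the wild-type range. The fold was -0.38 ± 0.17 (limma adjusted p = 0.201) with all samples and -0.46 ± 0.18 (adjusted p = 0.177) without them. Col27a1, the other minor fibrillar chain, had a fold of 0.17 ± 0.15 and 0.01 without HSALR 9 and 10. Col2a1, the fibril chain of cartilage, was too dim to be tested, at 4.76, 5.86 and 7.28 in HSALR and 5.01, 6.08 and 6.46 in wild type (lowest, median and highest), and its 2 highest values were again HSALR 9 and 10.

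No type IV chain of the basement membrane was called. The median fold of the 5 tested type IV chains was 0.04 with all samples and -0.02 without HSALR 9 and 10. Col4a1 and Col4a2, the pair found in basement membranes of nearly all tissues, had folds of 0.25 ± 0.19 and 0.32 ± 0.18 (limma adjusted p = 0.498 and 0.329), and of 0.06 and 0.13 without HSALR 9 and 10. Col4a1 ran from 9.94 through 10.81 to 11.66 in HSALR, against 10.14, 10.64 and 11.12 in wild type, with a second probe set at a fold of 0.35. Both genes still had samples 9 and 10 as their highest, about 1 log2 unit above the wild-type mean (0.97 and 1.02 for Col4a1, 1.05 and 1.10 for Col4a2).

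The 2 genes lie head to head on the genome, which is why their start regions are shown. In RefSeq's GRCm38.p6 annotation their transcription starts are 21 bases apart on opposite strands of chromosome 8. The windows from 250 bases before to 50 after each start are chr8:11312777-11313076 on the minus strand for Col4a1 and chr8:11312555-11312854 on the plus strand for Col4a2. They are written 5′ to 3′, and capitals mark the 78 bases that both windows hold, read from opposite strands.
Col4a1: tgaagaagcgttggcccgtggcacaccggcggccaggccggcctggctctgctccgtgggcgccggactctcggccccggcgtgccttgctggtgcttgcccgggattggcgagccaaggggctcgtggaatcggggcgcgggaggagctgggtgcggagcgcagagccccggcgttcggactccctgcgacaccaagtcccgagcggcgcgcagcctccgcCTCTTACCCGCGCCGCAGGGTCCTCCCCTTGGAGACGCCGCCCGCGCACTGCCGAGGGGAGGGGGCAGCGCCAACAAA
Col4a2: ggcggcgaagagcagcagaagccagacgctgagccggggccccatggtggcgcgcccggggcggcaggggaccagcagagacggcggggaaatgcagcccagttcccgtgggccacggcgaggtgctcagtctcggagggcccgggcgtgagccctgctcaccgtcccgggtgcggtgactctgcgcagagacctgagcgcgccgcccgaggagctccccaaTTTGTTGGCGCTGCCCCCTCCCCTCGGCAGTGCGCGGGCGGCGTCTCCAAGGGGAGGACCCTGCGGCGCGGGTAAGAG
The capitals hold both transcription starts, at 11312826 for Col4a1 and 11312805 for Col4a2. By these positions each start lies just inside the transcribed stretch of the other gene, so the annotated 5′ ends overlap.

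Col4a6, which with Col4a5 forms the type IV network of smooth muscle and some epithelia, was the collagen gene with the lowest fold with all samples (without HSALR 9 and 10, Col23a1 was). Col4a6 ran from 5.02 through 6.39 to 7.20 in HSALR, against 6.28, 6.87 and 7.42 in wild type. Samples 9 and 10 were at 6.27 and 5.50, the lowest values were HSALR 7 and 8 at 5.02 and 5.09, and 4 of 10 HSALR samples lay below every wild-type sample. The fold was -0.68 ± 0.26 (95% interval -1.22 to -0.15, limma adjusted p = 0.13) with all samples and -0.60 ± 0.27 (adjusted p = 0.269) without HSALR 9 and 10, so its size did not rest on them. Col4a4 and Col4a5 had folds of -0.16 ± 0.14 and 0.04 ± 0.13. Col4a3, a chain of kidney and lung basement membranes, fell below the signal limit over all samples, with a mean of 5.68 ± 0.56 in HSALR (SD, n = 10), under the limit, and 6.22 ± 0.40 in wild type (SD, n = 9), above it. Col19a1 is the reverse case, passing the limit only with the HSALR samples included.

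The 3 main type VI chains all had HSALR 9 and 10 as their 2 highest samples, and none was called. Col6a2 ran from 9.74 through 10.43 to 12.55 in HSALR, against 9.59, 10.35 and 11.33 in wild type, with HSALR 9 and 10 at 12.49 and 12.55. The other 8 HSALR samples, 9.74 to 11.19, lay inside the wild-type range. Its fold was 0.48 ± 0.32 (limma adjusted p = 0.417) with all samples and 0.06 ± 0.20 (adjusted p = 0.94) without them, and a second probe set gave 0.20 and -0.11. Col6a3 ran from 9.55 through 10.46 to 12.28 in HSALR, against 9.69, 10.30 and 11.13 in wild type, with a fold of 0.43 ± 0.30 (limma adjusted p = 0.434), or 0.04 ± 0.19 (adjusted p = 0.953) without samples 9 and 10. Col6a1 had a fold of 0.39 ± 0.29 with all samples and of -0.005 without them. Col6a4 and Col6a5, chains that can take the place of Col6a3, were below the signal limit.

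Among FACIT chains, Col12a1 and Col14a1, which coat type I fibrils in tendon and muscle sheaths, had the largest distances in HSALR 9 and 10. Col12a1 ran from 7.44 through 8.25 to 11.62 in HSALR, against 8.04, 8.29 and 8.80 in wild type. Samples 9 and 10 were at 11.31 and 11.62, HSALR 8 was at 9.80, and 4 of 10 HSALR samples lay below every wild-type sample. The HSALR samples spread more widely (SD 1.51, n = 10) than the wild-type samples (SD 0.27, n = 9), and the fold of 0.58 ± 0.45 (limma adjusted p = 0.498) was -0.06 ± 0.23 (adjusted p = 0.941) without HSALR 9 and 10. A second probe set of Col12a1 gave 0.65 and 0.18. Col14a1 ran from 8.13 through 8.87 to 11.34 in HSALR, against 8.02, 8.19 and 9.64 in wild type, with HSALR 9 and 10 at 11.34 and 10.92 and no other HSALR sample above the wild-type range. Its fold was 0.75 ± 0.36 (limma adjusted p = 0.239), or 0.27 ± 0.22 (adjusted p = 0.623) without them, and a second probe set gave 0.60 and 0.27.

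Col19a1, a minor FACIT chain, was 1 of the 4 tested chains of its class in which HSALR 9 and 10, here at 6.65 and 6.25, were not the 2 highest samples. It ran from 5.83 through 6.47 to 6.78 in HSALR, against 5.58, 6.12 and 6.55 in wild type. Its fold of 0.36 ± 0.15 (limma adjusted p = 0.168) was 0.35 ± 0.16 (adjusted p = 0.289) without them, with 4 of 10 HSALR samples above every wild-type sample. Further Col19a1 probe sets were below the signal limit and differed in direction. Their means were 6.25 in HSALR against 5.78 in wild type, and 5.12 against 5.38. Col22a1, the FACIT chain of the junction between muscle and tendon, had a fold of -0.05 ± 0.17, and its 2 other tested probe sets gave -0.23 and 0.37, so the probe sets disagreed in sign. Col16a1 had a fold of 0.34 ± 0.29 and -0.06 without HSALR 9 and 10, and Col9a1 and Col20a1 had folds of -0.04 and -0.02.

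With all samples, Col8a1 came closest to the threshold of all collagen genes, and without HSALR 9 and 10 Col23a1 was closer. Col8a1 encodes a chain of type VIII collagen, a short-chain network collagen made by vessel walls and by fibroblasts after injury. It ran from 7.15 through 8.06 to 9.90 in HSALR, against 6.70, 7.33 and 7.96 in wild type. The values of HSALR 9 and 10 were 9.90 and 9.85, and 4 further HSALR samples also lay above every wild-type sample, 6 of 10 in all, while the rest overlapped with wild type. Its mean was 8.30 ± 0.96 in HSALR (SD, n = 10) and 7.31 ± 0.37 in wild type (SD, n = 9), a fold of 1.00 ± 0.30 (95% interval 0.37 to 1.62, limma adjusted p = 0.0587). Without HSALR 9 and 10 the fold was 0.60 ± 0.20 (adjusted p = 0.107). The call depended on the scaling, since after quantile normalization the fold of 0.95 passed (limma adjusted p = 0.026), as did 0.61 without HSALR 9 and 10 (adjusted p = 0.048). A second probe set gave 0.60 with an adjusted p of 0.143, and 0.29 without samples 9 and 10. Its partner Col8a2 had a fold of 0.28 ± 0.25 and -0.05 without those samples, with 3 HSALR samples above and 4 below every wild-type sample.

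**Figure D3:**
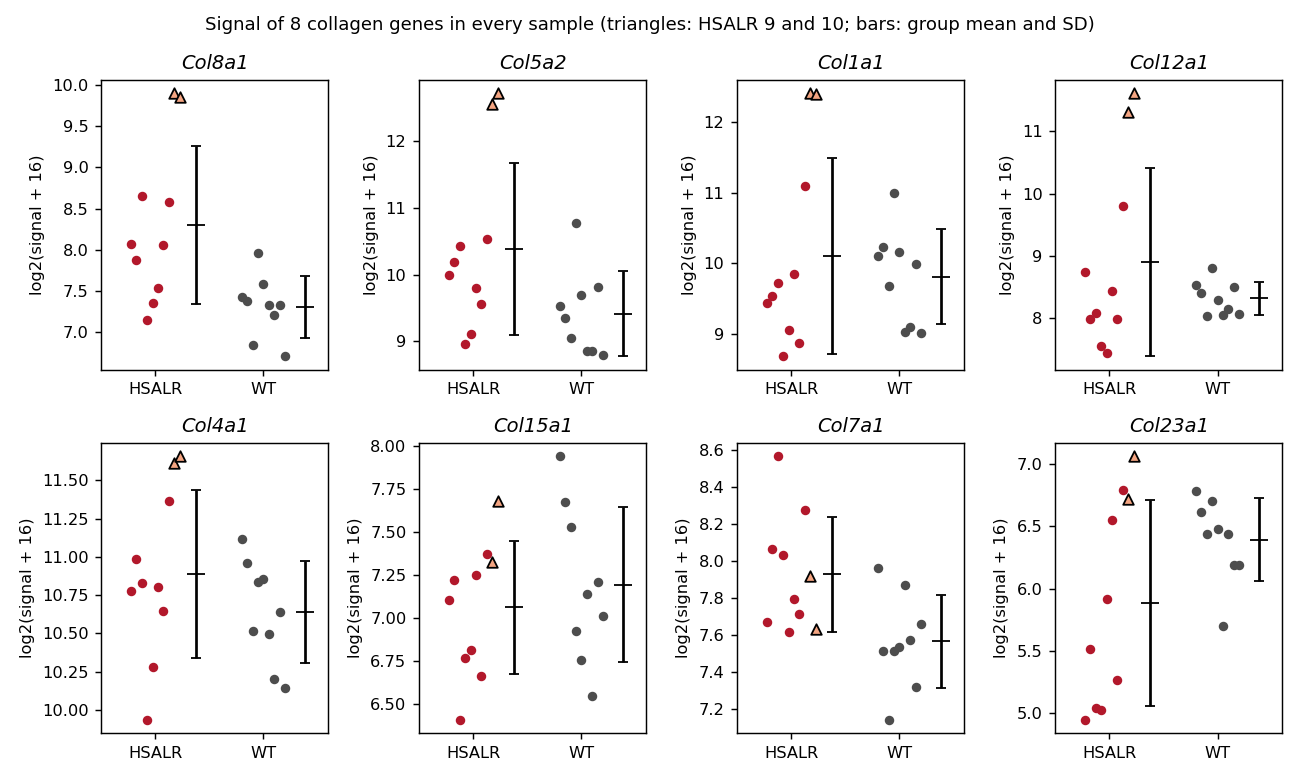
Level, as log2(signal + 16), of 8 collagen genes in every sample, HSALR left and wild type (WT) right, with HSALR 9 and 10 as triangles and the group mean and SD as bars. In Col5a2, Col1a1 and Col12a1 the triangles stand alone at the top, in Col8a1 6 of 10 HSALR samples are above all wild-type samples, and in Col7a1 and Col15a1 the triangles lie among the other samples.

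As the plot of levels in 8 genes shows, the brightest probe sets of Col7a1 and Col23a1 did not depend on HSALR 9 and 10 in the way of the fibrillar chains. Col7a1, the anchoring fibril collagen of skin, ran from 7.62 through 7.86 to 8.57 in HSALR, against 7.14, 7.54 and 7.96 in wild type, and 4 of 10 HSALR samples were above every wild-type sample. Neither HSALR 9 nor HSALR 10, at 7.92 and 7.64, was among them. The fold was 0.36 ± 0.13 (limma adjusted p = 0.104) with all samples and 0.40 ± 0.14 (adjusted p = 0.122) without them, and 0.41 (adjusted p = 0.012) without them after quantile normalization.

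Col23a1, a transmembrane collagen, ran from 4.95 through 5.72 to 7.06 in HSALR, against 5.70, 6.44 and 6.78 in wild type. The values of HSALR 9 and 10 were 6.72 and 7.06, among the 3 highest HSALR samples, and 5 other HSALR samples lay below every wild-type sample. Its fold was therefore larger without them, -0.76 ± 0.23 (limma adjusted p = 0.0732), than with all samples, -0.51 ± 0.26 (adjusted p = 0.278). After quantile normalization without HSALR 9 and 10 it was -0.78 (adjusted p = 0.046). Under that setting 5.71% of all tested genes were called higher and 6.05% lower, beside 2 collagen genes higher (Col7a1 and Col8a1) and 1 lower (Col23a1) of 31. With all samples after quantile normalization, 1 collagen gene was higher (Col8a1) and 0 were lower, beside 6.96% and 8.51% of all tested genes. These counts use the brightest probe set of each gene. A dimmer probe set of Col22a1 was also called higher with all samples after quantile normalization (fold 0.33, limma adjusted p = 0.0461). The brightest Col22a1 probe set had a fold of -0.12 there. Levels of Col23a1 and Col4a6 are close to the signal limit, where the pseudocount makes folds smaller. Further Col23a1 probe sets fell below that limit, and HSALR 9 and 10 were their 2 highest samples. In the brighter of these, they were at 7.31 and 7.93, with a mean of 5.50 in the other HSALR samples and 5.52 in wild type. In the dimmer, they were at 6.36 and 6.57, with means of 4.50 and 5.06.

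The multiplexins Col15a1 and Col18a1, basement membrane collagens that release antiangiogenic fragments, had folds of -0.13 ± 0.18 and 0.31 ± 0.25, and of -0.24 and -0.01 without HSALR 9 and 10. The genes below the signal limit were Col2a1, Col4a3, Col6a4, Col6a5, Col9a2, Col9a3, Col10a1, Col13a1, Col17a1, Col25a1 and Col26a1, and no fold is given for them. Beyond the brightest probe sets, 19 further collagen probe sets passed the limit. On the deposited scaling with all samples, limma called 0 of them, beside 2.86% of all tested probe sets called higher and 2.2% lower. Of the 19, 3 had an unadjusted p under 0.05 (20.6% of all tested probe sets did), and 15 had the sign of their gene's brightest probe set.

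Chains of 1 collagen type followed each other from sample to sample, apart from HSALR 9 and 10. To keep these 2 samples from setting the relation, correlations were taken over the other 17 samples, for 9 pairs chosen with the data in view. Pearson's r was 0.96 for Col1a1 with Col1a2 (Spearman 0.96), 0.97 for Col5a1 with Col5a2 (0.93), 0.96 for Col6a1 with Col6a2 (0.95), 0.89 for Col6a1 with Col6a3 (0.81) and 0.92 for Col4a1 with Col4a2 (0.87). The permutation p of these 5 Pearson values was 1e-05, the smallest that the permutations can give, and 1.8e-05 after adjustment over the 9 pairs, and that of their Spearman values was at most 0.00032 after adjustment. For Col1a1 with Col3a1, r was 0.80 (adjusted permutation p = 0.00016, Spearman 0.78). The relation held within each group, with r of 0.79 to 0.97 in HSALR 1 to 8 and 0.86 to 0.97 in wild type over these 6 pairs, and without the 2 samples farthest from the median, with r of 0.70 to 0.95.

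Partner chains of the dimmer types did not show it. Col8a1 with Col8a2 had an r of 0.32 (adjusted permutation p = 0.23, Spearman 0.35), Col11a1 with Col11a2 one of 0.44 (adjusted permutation p = 0.1, Spearman 0.29), and 0.08 without the 2 farthest samples, and Col4a5 with Col4a6 one of 0.21 (adjusted permutation p = 0.41, Spearman 0.36). Col4a5 and Col4a6 lie on opposite strands of the X chromosome with starts 1343 bases apart, against 21 bases for Col4a1 and Col4a2. Whether this distance bears on the correlations was not tested. Over all 465 pairs of tested collagen genes the median r was 0.42, and 0.21 after quantile normalization. For the correlated pairs named above, r after quantile normalization was 0.79 (Col1a1 with Col3a1) to 0.97 (Col5a1 with Col5a2). For the pairs of dimmer types it was 0.10 to 0.16. Beyond this normalization, the part of overall array brightness in these correlations was not tested. Col6a2 had the highest median r with the other collagen genes (0.74) and Col4a6 the lowest (-0.11).

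**Figure D4:**
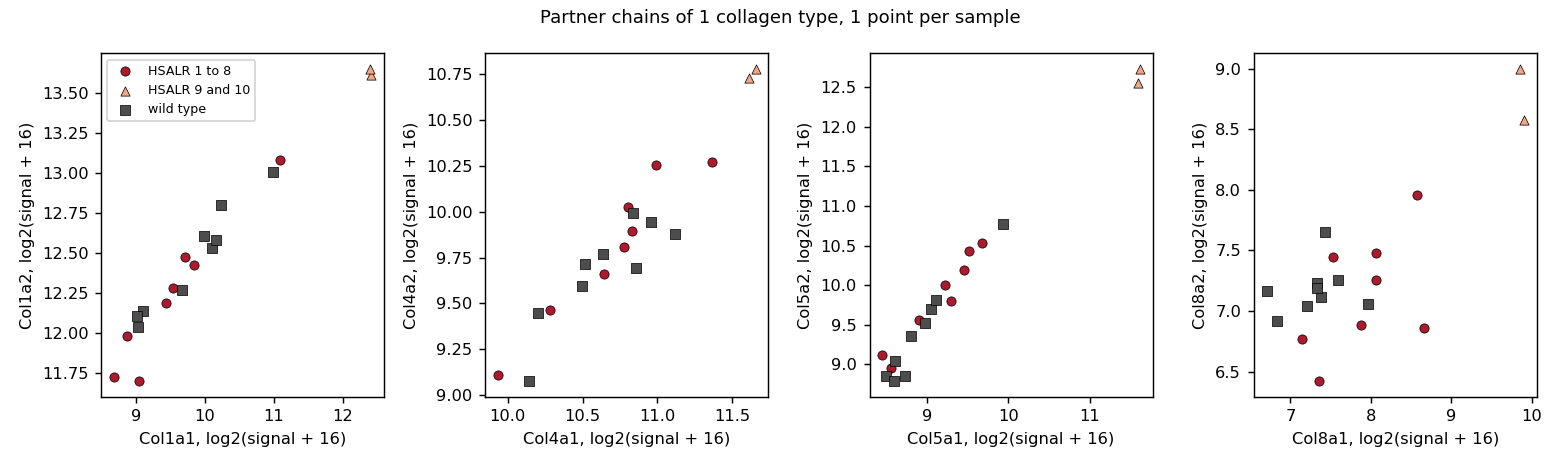
Partner chains plotted against each other, 1 point per sample on log2(signal + 16) axes, for types I, IV, V and VIII, with HSALR 1 to 8 as circles, HSALR 9 and 10 as triangles and wild type as squares. Points fall along a line for Col1a1 with Col1a2, Col4a1 with Col4a2 and Col5a1 with Col5a2 (r of 0.96, 0.92 and 0.97 over the 17 samples without HSALR 9 and 10) and scatter for Col8a1 with Col8a2 (0.32).

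In the plot of partner chains, HSALR 9 and 10 extend the line of each correlated pair instead of leaving it. The start region of Col1a2 was searched for CCAAT, the letters bound by the factor NF-Y, on both strands. The window from 250 bases before to 50 after its RefSeq start, chr6:4505368-4505667 on the plus strand of GRCm38.p6, held 2 matches, marked in capitals.
Col1a2: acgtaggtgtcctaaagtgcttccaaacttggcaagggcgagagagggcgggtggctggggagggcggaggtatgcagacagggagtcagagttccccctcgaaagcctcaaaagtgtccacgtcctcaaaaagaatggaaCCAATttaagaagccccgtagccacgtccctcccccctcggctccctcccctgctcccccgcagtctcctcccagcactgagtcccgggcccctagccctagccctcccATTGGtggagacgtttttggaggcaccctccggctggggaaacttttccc
Of 36 collagen windows, from the 33 collagen genes that have one, 36.1% held CCAAT on either strand, beside 37.4% of all 32851 RefSeq windows of that length. The letters were thus no more frequent in collagen windows than in others. Whether they bear on the relation of the type I chains was not tested.

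Other genes of collagen handling were described by 5 lists, for synthesis and folding, processing and cross-linking, collagen-binding small proteoglycans, receptors and uptake, and collagen-degrading enzymes. Of their 52 tested genes, limma called 2 higher and 0 lower with all samples, beside 3.11% and 2.31% of all tested genes. Synthesis and folding, with the prolyl and lysyl hydroxylases and the chaperone Serpinh1, had 0 of 21 called (2 higher at an unadjusted p under 0.05) and a median fold of 0.14, or -0.07 without HSALR 9 and 10. Processing and cross-linking, with the procollagen protease Bmp1 and the lysyl oxidases, had 0 of 8 called (2 higher unadjusted) and a median fold of 0.46, or 0.14 without those samples. The receptors had 0 of 7 called (1 higher unadjusted) and a median fold of 0.18, or 0.04. As in the collagen genes themselves, HSALR 9 and 10 were the 2 highest samples in many of these genes, 13 of 21 for synthesis and folding, 7 of 8 for processing, 8 of 10 for proteoglycans, 4 of 7 for receptors and 6 of 6 for degrading enzymes.

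The 2 genes that rose were Aspn and Mmp13. Mmp13, a collagenase that cuts fibrillar collagen, ran from 4.83 through 7.53 to 13.11 in HSALR, against 4.03, 4.18 and 5.84 in wild type. It was 12.91 and 13.11 in HSALR 9 and 10, and 7 of 10 HSALR samples were above every wild-type sample. Its fold was 3.50 ± 0.89 (limma adjusted p = 0.0214) with all samples and 2.22 (adjusted p = 0.00476) without HSALR 9 and 10. The second fit was not independent of those samples, because the signal limit was applied to the mean over all 19. Mmp13 reached that limit of 6.09, with a mean of 6.22, only with HSALR 9 and 10 included. Its wild-type mean of 4.38 ± 0.58 (SD, n = 9) lay below the signal limit, so it was tested only through its HSALR signal, and with a pseudocount of 64 its adjusted p was 0.0585. Aspn, which encodes the collagen-binding proteoglycan asporin, ran from 8.28 through 9.83 to 11.53 in HSALR, against 8.13, 8.61 and 9.70 in wild type, and 6 of 10 HSALR samples were above every wild-type sample. Its fold of 1.13 ± 0.33 (adjusted p = 0.0478) was 0.74 (adjusted p = 0.109) without HSALR 9 and 10, and its call was lost in 15 of 19 fits that left out 1 sample. The degrading enzymes as a list had a median fold of 0.51, or 0.10 without samples 9 and 10, and the proteoglycans 0.18, or 0.03.

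Markers of collagen-making and immune cells stood with the collagen genes in HSALR 9 and 10. In bulk muscle, fewer or more cells of a type and less or more RNA per cell cannot be told apart. The fibroblast and fibro-adipogenic progenitor list (9 of 10 genes on the array, all tested, including the collagen-binding Dcn and Lum of the proteoglycan list) had a mean level of 11.3 and 11.4 in HSALR 9 and 10, 9.504 to 10.6 in the other HSALR samples and 9.65 to 10.1 in wild type. Its mean difference from wild type was 1.45 and 1.49 in HSALR 9 and 10 and -0.36 to 0.70 in the others. Of its 9 genes, 3 were higher at an unadjusted p under 0.05, and 1 of 9 without samples 9 and 10 (13.8% and 8.38% of all tested genes were). The median fold of the list was 0.40, or 0.16 without those samples. With all samples 1 gene rose, Pdgfra, a receptor that marks these cells. Its fold was 0.74 ± 0.20 (limma adjusted p = 0.0276), and 0.53 (adjusted p = 0.0735) without samples 9 and 10.

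The tendon list (8 of 8 on the array and tested, 0 called, also unadjusted) had a mean level of 10.7 and 11.1 in HSALR 9 and 10, 8.70 to 10.4 in the other HSALR samples and 9.23 to 9.71 in wild type. The macrophage list (10 on the array, 9 tested) had 9.93 and 10.02 in HSALR 9 and 10, 7.78 to 9.04 in the other HSALR samples and 7.80 to 8.58 in wild type. Of its 9 tested genes, 7 were higher at an unadjusted p under 0.05, where 13.8% of all tested genes were. Without samples 9 and 10, 2 of the 9 were, beside 8.38% of all tested genes. The median fold of the list was 0.66 with all samples and 0.31 without those samples, and all 9 folds were above 0 in both fits. The lysosomal protein gene Cd68 rose, with a fold of 1.00 ± 0.24 (adjusted p = 0.0133) and 0.76 (adjusted p = 0.033) without samples 9 and 10, and after quantile normalization Ctss, the gene of a lysosomal protease, was called too (fold 0.81, adjusted p = 0.0229). The cartilage and bone list, of which 3 of 9 genes on the array passed the signal limit and 0 were called (1 lower unadjusted), had 6.37 and 6.26 in HSALR 9 and 10, 5.74 to 6.26 in the other HSALR samples and 5.74 to 6.41 in wild type. The endothelial list had 8.92 and 8.90 in HSALR 9 and 10, inside the 8.53 to 9.28 of wild type. In the other lists, 0 pericyte and smooth muscle, Schwann cell or blood genes were called (2, 0 and 0 higher unadjusted, 0 lower), but 2 of the first list were called higher after quantile normalization, Acta2 (adjusted p = 0.0229) and Pdgfrb (adjusted p = 0.0393), and not without HSALR 9 and 10. That scaling also called Alpl of the cartilage and bone list (fold -0.50, adjusted p = 0.0306) and Actn3 of the skeletal muscle list (fold -0.23, adjusted p = 0.0036) lower with all samples. The fat cell gene Adipoq rose (fold 1.58, adjusted p = 0.024) and the keratin gene Krt5 of epidermis fell (fold -0.80, adjusted p = 0.015). No marker of any list had a signal of 0 on any array. The part of these cell types in the collagen values was not tested.

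**Figure D5:**
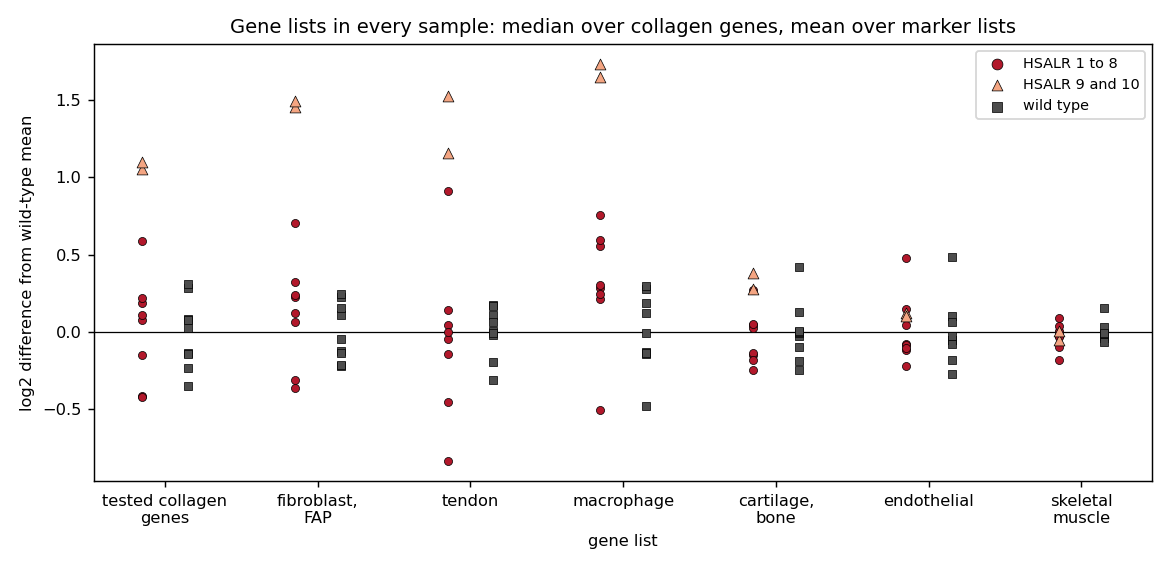
Difference from the wild-type mean in log2 units, for each sample, of the median over the 31 tested collagen genes and of the mean over the genes of 6 marker lists, with HSALR 1 to 8 as circles and HSALR 9 and 10 as triangles left of wild type as squares. The triangles lie at 1.05 and 1.10 for collagen genes, 1.45 and 1.49 for fibroblasts, 1.16 and 1.53 for tendon, and 1.65 and 1.73 for macrophages. For skeletal muscle they lie at -0.05 and 0.01. The muscle markers are near the brightest signal of an array (13.77 to 14.07), so their differences may be compressed.

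The plot of marker lists sets these values beside the collagen median. RNA quality was read from the 3′/5′ ratio of the actin and Gapdh control probe sets, whose mean log2 ratio was -0.11 ± 0.04 in HSALR (SD, n = 10) and -0.06 ± 0.05 in wild type (SD, n = 9). It was -0.09 and -0.03 in HSALR 9 and 10, within the -0.15 to 0.02 of wild type. With this ratio as a covariate, limma called 7 of 31 collagen genes higher in HSALR (Col3a1, Col5a1, Col5a2, Col6a2, Col6a3, Col8a1 and Col14a1) and 0 lower, beside 8.51% and 2.3% of all tested genes. Without HSALR 9 and 10 it called 1 of 31 higher (Col8a1, fold 0.92, adjusted p = 0.0395) and 0 lower, beside 1.21% and 0.763%.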

How the data were processed

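RNA of 19 EDL muscle samples was labelled with biotin and hybridised to 1-colour Affymetrix arrays, per the labels' protocols. The values deposited by the authors are linear signal intensities of 45101 probe sets, and GCOS 1.4 is named per the submitters' processing notes. Their algorithm is not given in the sources used here, nor is their scaling target. The deposited scaling was kept and values were used as log2(value + 16), so folds of dim genes are understated. After 64 control probe sets were left out, the 22519 probe sets with a mean at or above the median of 6.09 were tested with R 4.3.3 and limma 3.58.1 (linear model with eBayes, 2-sided, Benjamini-Hochberg, false discovery rate 0.05), and the fit was tested on simulated data. Samples were grouped by genotype label.

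The collagen genes, the other lists and the partner pairs were chosen with earlier results of these data known. Full values are given for collagen genes past the threshold in any fit and for the 10 with the largest absolute folds, and of the other lists for genes past the threshold. Further probe sets of these collagen genes are given where they passed the signal limit. Of those below it, only those of Col19a1 and Col23a1 are described. Further members were named for their chain class after their values were seen. Replicate numbers are shared between groups, and the main fit did not treat them as pairs. Alternatives were a pseudocount of 1 or 64, testing every probe set or the 11260 brightest, quantile normalization, centring on array medians, array weights, the replicate number as a block, the 3'/5' ratio as a covariate, the mean of all probe sets per gene, and leaving out samples. Averaging HSALR 9 and 10, and leaving out HSALR 8 as well, were added after seeing the data. Correlations were tested with 1e+05 permutations. Promoter windows are RefSeq's, build GRCm38.p6. Col6a6 and Col28a1 were not analysed here. Figures were drawn with matplotlib 3.10.9.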

Additional observations from a re-analysis of the deposited data

Results flagged for a closer look

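Of 62 sets of values tested for a sample apart (31 collagen genes in HSALR and in wild type), 4 had one by Dixon's test, where chance flags about 1 in 20 groups. All 4 were wild-type samples above the others of their group. Col11a1 was at 7.86 in wild type 4, with the next wild-type sample at 6.98, and Col5a1 was at 9.94 in the same sample, with the next at 9.11. Col27a1 was at 8.52 in wild type 1, with the next at 8.08, and Col8a2 was at 7.65 in that sample, with the next at 7.26. In HSALR the test, which measures the gap beside 1 extreme sample, singled out none of the 31 genes.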

How the results depend on the processing

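Collagen calls were also 0 under pseudocounts of 1 (2.93% of all genes called higher and 2.24% lower) and 64 (3.7% and 2.5%). They were 0 with no filter (1.52% and 1.18%) and with the mean of all probe sets per gene (26 genes tested, 2.55% and 1.96%). With HSALR 9 and 10 averaged they were 0 too (2.46% and 2.04%). These shares are small, so 0 calls lie near them. Other settings gave calls. With all samples, 1 gene was higher (Col8a1 each time) among the 11260 brightest probe sets (17 tested, 5.3% of all genes called higher), after quantile normalization (6.96%) and after centring on medians (6.57%), 3 with array weights (Col7a1, Col8a1 and Col19a1, beside 10.8%), 7 with the 3'/5' covariate (8.51%), and 0 to 1 when 1 sample was left out (Col8a1 without HSALR 4, 5 or 6), with 0 to 0 lower. The median collagen fold was 0.15 to 0.40 with 1 sample left out, -0.0202 without HSALR 9 and 10, and -0.0305 without them after quantile normalization, where 2 were higher and 1 lower. Without HSALR 9 and 10, quantile normalization and centring each gave 2 higher and 1 lower (Col7a1, Col8a1 and Col23a1), beside 5.71% and 6.05% of all genes and 5.46% and 4.71%. Array weights gave 1 higher (Col7a1) and 1 lower (Col23a1), beside 5.12% and 2.14%, the covariate 1 higher (Col8a1), beside 1.21%, with a median fold of 0.21, and leaving out HSALR 8 as well 1 lower (Col23a1), beside 2.98%. On the deposited scaling, 10 of 31 folds turned from above to below 0 without HSALR 9 and 10 (Col1a1, Col1a2, Col4a5, Col6a1, Col8a2, Col11a1, Col11a2, Col12a1, Col16a1 and Col18a1), and 0 the other way. Without these samples the same folds were also below 0 after quantile normalization, as in Col1a1 (-0.28 deposited and -0.29 quantile), Col11a1 (-0.0883 and -0.11) and Col12a1 (-0.0637 and -0.0611). After that normalization, however, Col4a5 (-0.0139) and Col11a2 (-1.16e-05) were already below 0 with all samples. The cause of these changes was not tested, beyond the smaller number of samples or genes. In the 5 other lists, the 2 genes higher became 0 with a pseudocount of 1, 1 with a pseudocount of 64, no filter, the 11260 brightest, the mean of probe sets, without HSALR 9 and 10 or with them averaged, 4 with array weights, 14 with the covariate and 1 to 4 with 1 sample left out, with 3 higher (Aspn, Mmp13 and Loxl1) and 2 lower (Mia3 and Sec23a) after quantile normalization, 3 higher (Mmp13, Loxl1 and Tmem38b) and 0 lower after it without HSALR 9 and 10, and 0 to 0 lower with 1 sample left out. The shares of all genes called higher were 10.8% with array weights, 8.51% with the covariate and 2.15% to 7.4% with 1 sample left out. Aspn was still called without wild type 4 or HSALR 4, 5 or 6, and not without any other sample. Over all probe sets, 645 higher and 495 lower became 1457 and 1885 after quantile normalization, 1364 and 1573 after centring, 2278 and 600 with array weights, 1705 and 464 with the covariate, and 1562 higher without HSALR 5. With the replicate block, which leaves out HSALR 10, 0 collagen genes were called, beside 1.98% of all genes higher and 1.5% lower. The median collagen fold there was 0.15, the other lists had 1 gene higher, and 409 and 307 probe sets were called. Whether the numbers pair the samples is not settled by these values. Deviations of same-numbered samples correlated at -0.24 to 0.13 over 9 pairs, and 3 of 9 HSALR samples correlated best with their own number. The signal of dim chains near the limit and the ceiling of the brightest chains limit what folds can show.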
